A study of Mus musculus with 9 samples.

Results

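Mannitol is a sugar alcohol that cells take up poorly, so adding it to a medium raises osmolality without adding glucose. The comparison set 3 libraries kept with 5.3 mM glucose and 24.7 mM mannitol against 3 kept with 5.3 mM glucose alone, called normal glucose. These are 6 of the 9 small RNA libraries of the series, chosen by the treatment label. The other 3 libraries, in 30 mM glucose, entered the model fit and are shown for reference only. All came from vesicles in the supernatant of a conditionally immortalized mouse podocyte line, grown at 33 °C with interferon-γ and differentiated for 10 days at 37 °C in 5% fetal bovine serum without it, before 48 h of treatment. It is a single cell line, and vesicles were precipitated with a polymer reagent, so other RNA carriers of the medium can be included. Depletion of vesicles from the serum is not mentioned in the labels. Every miRNA identifier was a member. Of 1915 identifiers, 468 were listed in at least 1 of the 6 libraries and 281 in all 6, and 361 passed the expression filter and were tested.

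A miRNA is cut from the 5p or the 3p arm of a hairpin and pairs with messenger RNAs mainly through its seed, bases 2 to 8. Cells also export miRNAs in vesicles. High osmolality draws water out of cells and activates the transcription factor NFAT5 (TonEBP), which induces transporters and enzymes for protective solutes. In kidney cells miR-200b and miR-717 have been linked to NFAT5. Podocytes, the epithelial cells of the kidney filter, are known for high levels of the miR-30 family.

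Mature sequences of some of the miRNAs that headed the comparison are given first, with the seed in capitals, 5′ to 3′, from RefSeq on GRCm38.p6. Sequences of miR-214-3p, miR-451a, miR-193b-3p, miR-7a-5p and miR-10b-5p are not printed. The printed miRNAs with higher values with mannitol were the following.
miR-193a-5p: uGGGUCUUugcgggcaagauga
miR-205-5p: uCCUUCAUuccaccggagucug
miR-185-3p: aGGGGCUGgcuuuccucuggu
miR-744-5p: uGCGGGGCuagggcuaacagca
miR-760-3p: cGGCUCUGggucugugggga
miR-3473a: uGGAGAGAuggcucagca
miR-3473b: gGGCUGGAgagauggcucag

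Those with lower values are shown next, because miR-16-5p and miR-15a-5p carry the same seed.
miR-221-5p: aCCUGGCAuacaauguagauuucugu
miR-155-5p: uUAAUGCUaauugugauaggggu
miR-146b-5p: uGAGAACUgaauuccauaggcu
miR-16-5p: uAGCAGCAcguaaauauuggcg
miR-15a-5p: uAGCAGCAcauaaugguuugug
miR-19a-3p: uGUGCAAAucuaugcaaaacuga
let-7a-5p: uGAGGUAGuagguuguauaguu
Although their seeds differ, miR-3473a (18 bases) and miR-3473b (20 bases) share a stretch of 16 bases, so that short reads of one could be counted for the other.

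Total miRNA counts were 1087144 to 1539514 in the normal glucose libraries and 1329426 to 2269776 with mannitol. No count from 1 to 9 occurred, so a listed 0 stands for 0 to 9 reads. The libraries did not fall apart by treatment. Distance was measured as the median absolute log2 ratio between 2 libraries over the 260 miRNAs listed in all 9. Mannitol replicates 1 and 3 lay 0.32 apart. The library labelled mannitol replicate 2 lay 0.66 and 0.71 from replicates 1 and 3, farther than any of the 3 mannitol libraries lay from a normal glucose library (0.35 to 0.51). Its nearest library was high glucose replicate 2, at 0.18, the closest of all 36 pairs, followed by high glucose replicate 3 at 0.29. The chi-square statistic between mannitol replicate 2 and high glucose replicate 2, which covers counting error only, was 62.3 per degree of freedom. It was the lowest of all 36 pairs. Their counts thus differed by more than counting error, which says nothing about the origin of the RNA or the labels. Why mannitol replicate 2 stood apart was not tested. The comparison is also given without it, and values without it stand beside many of the single values and lists that moved. The distances over all 9 libraries were chosen after the data were seen. Normal glucose libraries lay 0.34 to 0.47 from each other.

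**Figure D1:**
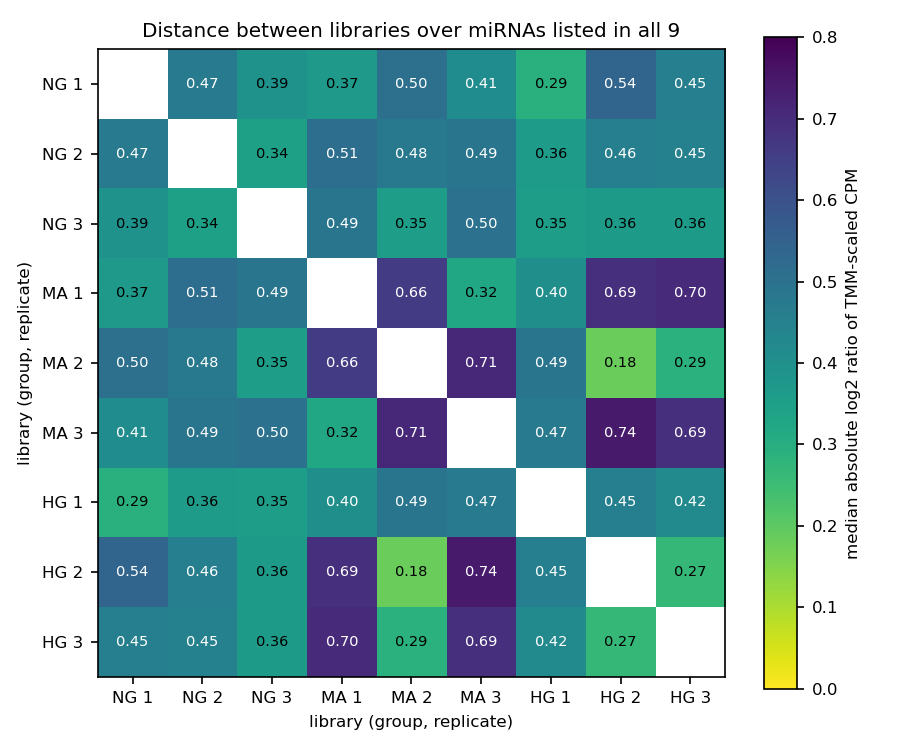
Median absolute log2 ratio of TMM-scaled CPM between each pair of libraries (NG normal glucose, MA mannitol, HG high glucose, with replicate number), over 260 miRNAs. MA 2 is close to HG 2 (0.18) and HG 3 (0.29) and far from MA 1 (0.66) and MA 3 (0.71).

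Numbers of miRNAs, their concentration in a few species and their share of the library overlapped between the groups. The 3 mannitol libraries listed 358, 349 and 419 miRNAs and the normal glucose libraries 362, 314 and 347 (exact permutation p = 0.4, two-sided). After each library was thinned to 1087144 counts the numbers were 338, 310 and 331 with mannitol and 326, 314 and 347 in normal glucose. The 10 most abundant miRNAs of a library took 51.6%, 58.5% and 51.9% of counts with mannitol and 55.3%, 54.9% and 55.9% in normal glucose (exact permutation p = 0.5). Mannitol replicates 1 and 3 lay below every normal glucose library and replicate 2 above. The difference of means of -1.39 percentage points was -3.63 without mannitol replicate 2, -0.20 without replicate 1 and -0.34 without replicate 3. The miRNA counts were 5.91%, 6.74% and 9.71% of the deposited library constant with mannitol, and 6.96%, 4.55% and 4.90% in normal glucose (exact permutation p = 0.3). That difference of 1.98 percentage points was 0.856 without mannitol replicate 3. With 3 libraries against 3 no exact p can fall below 0.1, and over 6 such measures every adjusted p was at least 0.75.

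The question put by this pair of groups is what an osmotic load alone does to vesicle miRNAs. No miRNA passed the threshold. Values were close to balanced, with 188 of 361 miRNAs higher and 173 lower and a median log2 fold change of 0.01. In edgeR 0 of 361 (0%) had an adjusted p under 0.05 (smallest adjusted p = 0.9996), as had 0 in DESeq2 (7 under 0.05 unadjusted) and 0 in limma-voom (3 unadjusted). An unadjusted p under 0.05 was reached by 5 of 361 (1.39%), 3 higher (0.831%) and 2 lower (0.554%). That number was 35 without mannitol replicate 2, 16 without normal glucose replicate 1, 2 without mannitol replicate 1 and 1 without normal glucose replicate 3. With the deposited library constant as the scale, 324 of 361 were higher and the median was 0.50 in place of 0.01. In a fit of the 6 libraries alone, 229 of 361 were higher.

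The intervals show how much room the libraries leave. For 132 of 361 miRNAs (36.6%) the 95% interval of the fold change lay within 2-fold in either direction, and for 6 it lay within 1.5-fold. Among the 75 miRNAs with a mean of at least 1000 CPM, 63 lay within 2-fold. The count of 132 was 83 without normal glucose replicate 3, 86 without mannitol replicate 1 and 3 when scaled to the library constant. A fold change beyond 2 was estimated for 29 miRNAs, 18 higher and 11 lower, but only 2 of the 162 miRNAs with a mean of at least 100 CPM were among them. These were miR-1a-3p and miR-709.

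**Figure D2:**
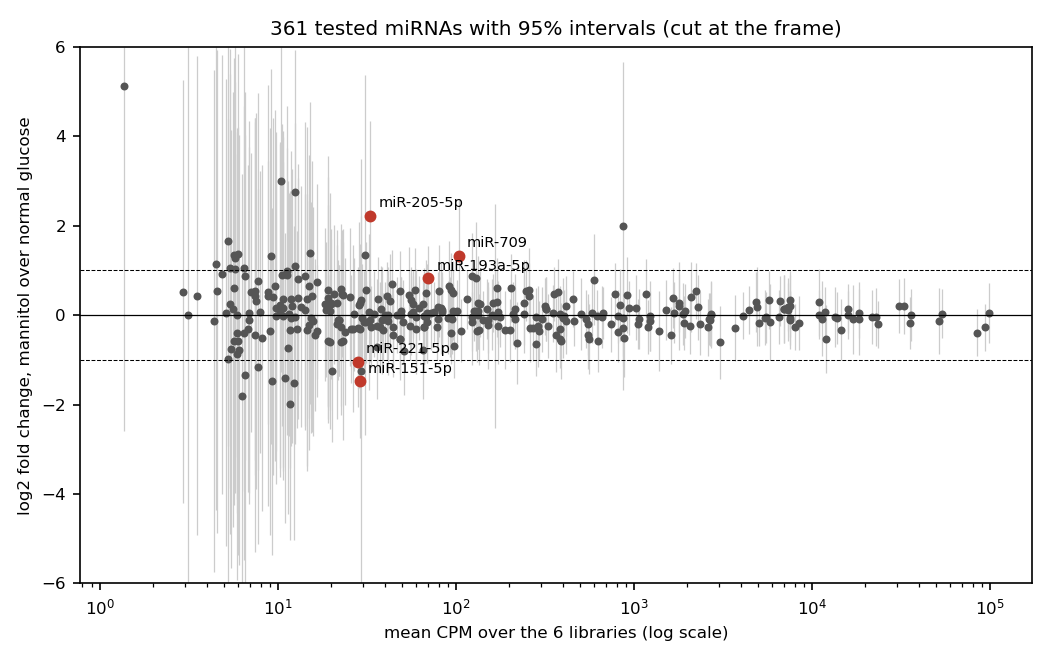
Log2 fold change (y) against mean CPM over the 6 libraries (x, log scale) for 361 miRNAs, with 95% intervals as grey lines and dashed lines at 2-fold. The 5 red points, at an unadjusted p under 0.05, all have a mean near or below 100 CPM, and intervals widen toward low levels.

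Higher values with mannitol were found mainly among miRNAs of low level, and none of them passed. The hairpin of miR-193a-5p, known from work on podocyte differentiation, lies on chromosome 11 at 79711969 to 79712034, plus strand, outside any annotated host gene. Its levels were 119, 50.4 and 105 CPM with mannitol and 53.9, 37.7 and 55.1 CPM in normal glucose. Mannitol replicates 1 and 3 were above every normal glucose library, and replicate 2 lay within their range. The log2 fold change was 0.82 (SE 0.34, 7 of 9 pairs of libraries higher), and 1.11 without mannitol replicate 2. In the 3 high glucose libraries it stood at 40.7 to 67.6 CPM, and the opposite arm miR-193a-3p was listed nowhere. The neighbouring hairpin of miR-365-2 lies 14431 bases away (79726400 to 79726511). Its 5p arm was at 14.3, 17.6 and 23.8 CPM with mannitol and 11.7, 11.04 and 11.7 CPM in normal glucose. These do not overlap, but the log2 fold change was 0.65 with an SE of 1.38, and 0.42 without mannitol replicate 3. The 3p arm, miR-365-3p, which a second hairpin also encodes, had -0.14 (-0.53 to 0.12 with 1 library left out).

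The epithelial miR-205-5p had the second largest value among the 10 higher, 2.23 (SE 0.99), and rested on 1 library. Mannitol replicate 1 held 129 CPM, whereas the other mannitol libraries held 11.3 and 24.2 CPM and the normal glucose libraries 10.4, 0 and 22.6 CPM. Without mannitol replicate 1 it had 0.80. Its hairpin lies on chromosome 1 at 193507463 to 193507530, minus strand, in an exon of the noncoding 4631405K08Rik. The identifier miR-709, which has been attributed to fragments of other RNAs, was at 283, 64.8 and 107 CPM with mannitol and 93.5, 22.1 and 52.4 CPM in normal glucose. Here too mannitol replicate 1 was highest. The log2 fold change of 1.33 (SE 0.59) became 0.66 without that library.

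Both miR-3473 identifiers and miR-185-3p had mannitol libraries that all lay above normal glucose. For miR-3473b these were 247, 117 and 123 CPM against 105, 47.8 and 100.3 CPM, a log2 fold change of 0.88 (SE 0.45), and 0.57 without mannitol replicate 1. Listed at 0 in 2 of the 3 normal glucose libraries and at 8.44 CPM in the third, miR-3473a stood at 44.4, 12.6 and 9.25 CPM with mannitol, and its fitted value of 2.77 depends on how a listed 0 is read (1.31 with zeros set to 9 reads) and on normal glucose replicate 1, without which every normal glucose library is at 0 and no fold can be given. From an intron of Tango2 on chromosome 16 (18327401 to 18327465, minus strand), miR-185-3p was at 63.2, 45.9 and 56.0 CPM with mannitol and 35.1, 23.9 and 39.7 CPM in normal glucose. That gap is small, from 39.7 to 45.9 CPM, and the log2 fold change was 0.69 (SE 0.36). High glucose libraries spanned both groups, at 26.6 to 56.5 CPM.

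The rest of the 10 higher values were at moderate levels. From an intron of the kinase gene Map2k4 on chromosome 11 (65734733 to 65734832, minus strand), miR-744-5p was the most abundant, at 3619, 1565 and 2990 CPM against 2103, 1486 and 1716 CPM. Its log2 fold change was 0.54 (SE 0.30), and 0.81 without mannitol replicate 2, which lay inside the normal glucose range, but 0.26 once a trend with GC content was removed. The GC-rich miR-760-3p was at 304, 113 and 335 CPM with mannitol against 142, 142 and 183 CPM, with mannitol replicate 2 below and the others above every normal glucose library. It had 0.60 (SE 0.36), and 0.95 without mannitol replicate 2, but 0.29 without mannitol replicate 3 and 0.16 with the GC trend removed. From the Dnm3os transcript, miR-214-3p had 0.60 (SE 0.32, and 0.27 without mannitol replicate 3). The erythroid miR-451a, which is processed without Dicer, had 0.55 (SE 0.32, 0.26 without that library and 0.87 with the GC trend removed). For both, mannitol replicate 3 held the highest level, 287 and 399 CPM.

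**Figure D3:**
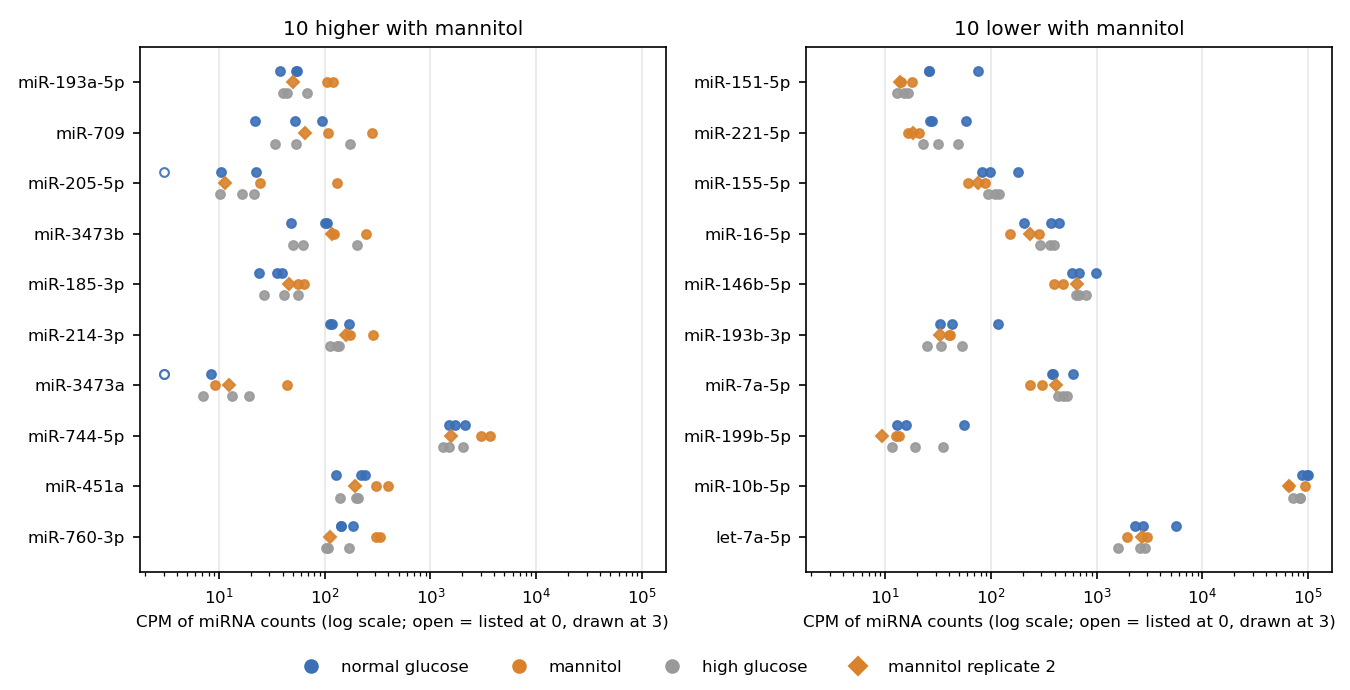
CPM of miRNA counts (x, log scale) in each library for the 10 miRNAs with the smallest unadjusted p in each direction. Each point is 1 library; mannitol replicate 2 (diamond) lies within the normal glucose range for miR-193a-5p and miR-744-5p and below it for miR-760-3p.

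Lower values with mannitol included the 5p arms of miR-151 and miR-221, both minor arms. The level of miR-151-5p was 18.1, 13.8 and 14.1 CPM with mannitol and 26.0, 25.8 and 74.96 CPM in normal glucose. The groups did not overlap, with normal glucose replicate 3 far above the rest. The log2 fold change was -1.48 (SE 0.60), and -0.90 without that library. All 3 high glucose libraries, at 12.9 to 16.4 CPM, were at the mannitol level. On the X chromosome (19146294 to 19146388, minus strand, no host gene) miR-221-5p stood at 16.5, 18.3 and 20.7 CPM against 27.9, 26.7 and 58.7 CPM. The groups did not overlap, and the log2 fold change was -1.04 (SE 0.48), or -0.68 without normal glucose replicate 3. High glucose libraries held 22.7 to 49.3 CPM, above every mannitol library.

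The immune-associated miR-155-5p and miR-146b-5p, which restrain or tune inflammatory signalling, were next. Levels of miR-155-5p (chromosome 16, 84714140 to 84714204, in an exon of Mir155hg) were 60.9, 76.2 and 88.6 CPM with mannitol and 98.7, 81.9 and 182 CPM in normal glucose. In 1 of 9 pairs of libraries mannitol was higher, and the log2 fold change was -0.69 (SE 0.34), or -0.37 without normal glucose replicate 3 and -0.39 with the GC trend removed. For miR-146b-5p (chromosome 19, 46342762 to 46342870, in an intron of Mfsd13a) levels were 477, 656 and 395 CPM against 580, 688 and 984 CPM. It had -0.59 (SE 0.32), and -0.88 without mannitol replicate 2.

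The seed shared by miR-16-5p and miR-15a-5p is that of a family known for restraining cyclins. The 2 hairpins of miR-16-5p lie in an intron of Smc4 on chromosome 3 (69009902 to 69009996, plus strand) and in Dleu2 on chromosome 14 (61631880 to 61631972, minus strand). It stood at 282, 234 and 150 CPM with mannitol and 366, 205 and 444 CPM in normal glucose, with 1 normal glucose library inside the mannitol range. The log2 fold change was -0.64 (SE 0.33). Near the listing limit, miR-15a-5p was at 0, 12.0 and 5.73 CPM against 12.3, 19.3 and 16.3 CPM. The related miR-15b-5p, from the same locus as the Smc4 copy of miR-16, had 0.52 with an SE of 1.38 (-0.03 without normal glucose replicate 2), at 0 to 13.0 CPM in the 6 libraries.

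Among the other lower values, let-7a-5p and miR-193b-3p each rested on 1 normal glucose library. For let-7a-5p normal glucose replicate 2 held 5606 CPM, and the other 5 libraries 1948 to 2979 CPM. Its log2 fold change of -0.61 (SE 0.38) was 0.062 without that library and -0.28 with the GC trend removed. For miR-193b-3p normal glucose replicate 1 held 117 CPM, and the other 5 libraries 33.1 to 43.4 CPM. Its value of -0.80 (SE 0.46) was -0.07 without it. The brain- and endocrine-associated miR-7a-5p had -0.52 (SE 0.31), and -0.83 without mannitol replicate 2, -0.34 without mannitol replicate 3 and -0.31 with the GC trend removed. The value of miR-199b-5p was -1.24 (SE 0.74, and -0.41 without normal glucose replicate 3). Of the 10 most abundant miRNAs miR-10b-5p was the only one in this group, at 66004, 65759 and 93720 CPM against 86888, 97611 and 99610 CPM. Its log2 fold change of -0.39 (SE 0.25) was 0.18 when scaled to the library constant. It was -0.24 without mannitol replicate 1, -0.25 without normal glucose replicate 2, -0.60 without mannitol replicate 3 and -0.23 with the GC trend removed.

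For 12 of 361 miRNAs (3.32%) the 3 mannitol and 3 normal glucose libraries were fully apart, 8 with mannitol higher (2.22%) and 4 with mannitol lower (1.11%). Since full separation of 3 libraries against 3 has an exact permutation p of 0.1, it is a weak criterion, and the 12 are given as values only. Only 7 of the 12 were listed in all 6 libraries. Beside those given above, miR-322-3p, from the X-linked cluster with miR-503, was at 580, 466 and 525 CPM with mannitol and 443, 351 and 375 CPM in normal glucose. This was the most abundant of the 12, and its log2 fold change was 0.36 (SE 0.29, 0.27 to 0.44 with any 1 of the 6 libraries left out). Its cluster neighbours miR-503-5p and miR-503-3p had -0.57 and 0.07 (-1.30 to -0.26 and -0.07 to 0.26 with 1 library left out). Farther neighbours miR-542-3p, miR-450b-3p and miR-450b-5p had 0.28, 0.23 and 0.04, and miR-542-3p was highest in mannitol replicate 2 (424 CPM). The other arm, miR-322-5p, was at 0 to 10.8 CPM in the 6 libraries and was not tested. From an intron of Dcaf5 on chromosome 12 (80391613 to 80391677, minus strand), miR-1843a-5p was at 394, 449 and 407 CPM against 313, 214 and 355 CPM, a log2 fold change of 0.48 (SE 0.29). At the listing limit, miR-19a-3p was at 0, 8.18 and 5.29 CPM against 11.7, 13.8 and 31.6 CPM. The remaining 2, miR-223-5p and miR-1957a, had at most 25.2 CPM in any of the 6 libraries.

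Both arms of a hairpin come from 1 transcript, and their fold changes were compared by sign. For 43 hairpins both arms were listed in all 6 libraries, and in 24 (55.8%) the arms had fold changes of the same sign. None of these fold changes passed, and a sign says little near 0, as for miR-99b (-0.05 and -0.01). The share of 55.8% therefore does not show that arms went apart. Of the 43, miR-199b has a 3p arm with the same counts as miR-199a-3p, which comes from other hairpins. The ratio of 5p to 3p arm did not overlap between groups for 4 of the 43 (9.30%), miR-140, miR-151, miR-221 and miR-425, each with a lower ratio with mannitol. Full separation of 3 libraries against 3 has an exact permutation p of 0.1, and the share of 9.30% is near that value. The 4 ratios are therefore given as values only and do not show a shift between arms. Of miR-151 the 3p arm is the abundant one, at 39881, 22012 and 41343 CPM with mannitol and 24984, 31533 and 26507 CPM in normal glucose. Its log2 fold change was 0.22 (0.03 to 0.45 with 1 library left out), opposite in sign to the -1.48 of the 5p arm, and the log2 ratio of the arms was -11.11, -10.63 and -11.52 with mannitol and -9.91, -10.26 and -8.47 in normal glucose. For miR-221 the abundant 3p arm had -0.06 and the log2 ratio was -8.61, -8.81 and -8.55 against -8.08, -7.85 and -7.30. The cartilage-associated miR-140 had a log2 ratio of -8.90, -8.38 and -9.84 against -8.15, -8.03 and -7.65. Minor arms of these 3 hairpins rested on 17 to 83 reads per library, under 1 read for each 100 reads of the major arm. In miR-425 both arms were of similar level, and the log2 ratio was 0.48, 0.27 and 0.36 against 0.52, 1.31 and 1.503.

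The miRNAs linked to hypertonicity did not share a direction. Of 9, 7 were listed and 6 tested, with 2 higher and 4 lower and none at an unadjusted p under 0.05. Their median was -0.08, beside 0.01 for all 361. With the library constant as the scale 6 of 6 were higher, as were 324 of all 361 miRNAs, and 5 of 6 were below the median of all. Without normal glucose replicate 2 the count was 0 of 6 higher (median -0.25, all 6 below the median of all miRNAs). With the GC trend removed it was 4 of 6 (median 0.07), and without mannitol replicate 2 it was 3 of 6 (median -0.02). The most abundant, miR-200b-3p, was at 2788, 2875 and 2234 CPM with mannitol and 3025, 2357 and 2675 CPM in normal glucose, a log2 fold change of -0.08 (95% interval -0.66 to 0.50, and -0.19 without mannitol replicate 2). Its seed relative miR-429-3p was at 249, 275 and 255 CPM against 409, 200 and 365 CPM and had -0.34 (SE 0.31), or -0.15 without normal glucose replicate 1 and -0.52 without normal glucose replicate 2. Both miR-717 and miR-137-3p were listed in no library.

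None of the 10 most abundant vesicle miRNAs passed the threshold. The podocyte miRNA miR-30a-5p was at 86608, 137096 and 79829 CPM with mannitol and 87587, 93445 and 106766 CPM in normal glucose. Mannitol replicate 2 was above all normal glucose libraries and the other mannitol libraries were below all of them. The log2 fold change was 0.04 (95% interval -0.63 to 0.72), and -0.30 without mannitol replicate 2. The growth-associated miR-21a-5p also had mannitol replicate 2 above and the other mannitol libraries below every normal glucose library, at 40158, 76516 and 34139 CPM against 55028, 49673 and 57047 CPM. It had -0.12 (95% interval -0.86 to 0.62), -0.64 without mannitol replicate 2 and 0.10 without mannitol replicate 3. From the Hox clusters, miR-10a-5p stood at 85092, 68700 and 108512 CPM against 97326, 106864 and 96849 CPM, with -0.27 (95% interval -0.80 to 0.25, and -0.10 to -0.48 with 1 library left out). For miR-378a-3p, a regulator of energy metabolism, the value was 0.03 (95% interval -0.51 to 0.58), and for miR-25-3p it was 0.00 (95% interval -0.58 to 0.58). The others of the top 10, miR-30d-5p, miR-27b-3p, miR-151-3p and miR-183-5p, had -0.17, 0.21, 0.22 and -0.20. Without mannitol replicate 2, miR-378a-3p had -0.18, miR-25-3p 0.19, miR-30d-5p -0.29, miR-27b-3p -0.10 and miR-151-3p 0.44.

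Within the miR-30 family, 1 of 5 members was higher and 4 lower, with a median of -0.08. With the library constant as the scale 5 of 5 were higher, as were 324 of all 361 miRNAs, and 4 of 5 were below the median of all. The family median of -0.08 was -0.30 (0 of 5 higher) without mannitol replicate 2 and 0.06 (3 of 5 higher) without normal glucose replicate 2. Their summed level was 127759, 177083 and 106713 CPM with mannitol and 126420, 136414 and 140209 CPM in normal glucose. The family is also expressed by many other cells, so this level does not identify podocytes. The let-7 family, known for repressing growth genes, had 0 of 9 members higher, with values of -0.61 to -0.04 and a median of -0.24, but 7 of 9 higher with the library constant as the scale. On that scale 7 of 9 were below the median of all miRNAs. Without normal glucose replicate 2, which held the highest let-7 sum (103443 CPM), 8 of 9 were higher, and with the GC trend removed 5 of 9 were. The median was -0.47 without mannitol replicate 2. The 8 miRNAs of the Hox clusters were all lower (median -0.14). With the library constant as the scale all 8 were higher, but 6 of 8 were below the median of all miRNAs. Without normal glucose replicate 2, 4 of 8 were higher. Without mannitol replicate 2 the median was -0.30, with 2 of 8 higher. The list of inflammatory miRNAs had 8 of 8 lower (median -0.29), but 5 of 8 higher with the library constant as the scale. All 8 were below the median of all miRNAs on either scale, and 6 of 8 without normal glucose replicate 3 or mannitol replicate 1. Summed, that list was dominated by miR-21a-5p. The miR-17 clusters had 1 of 8 higher and 7 lower, with a median of -0.27, but 5 of 8 higher with the library constant as the scale, on which all 8 were below the median of all miRNAs. The median was -0.57 without mannitol replicate 2, -0.09 without mannitol replicate 3 and -0.12 without normal glucose replicate 1. No list had more than 1 member at an unadjusted p under 0.05.

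**Figure D4:**
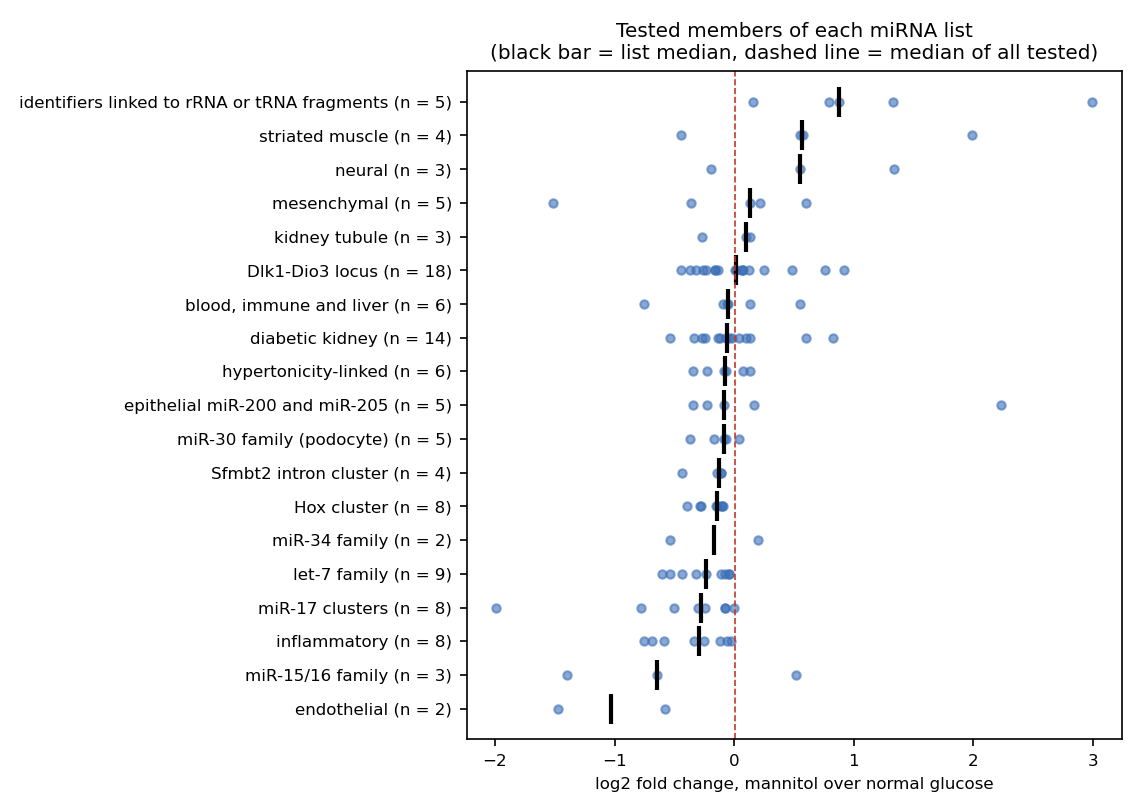
Log2 fold change of each tested member (points) of each miRNA list (rows, with number tested), with the list median as a black bar. The list medians farthest from that of all 361 miRNAs (dashed) belong to the endothelial list (-1.03, 2 tested members, and 0.11 without normal glucose replicate 3) and the list linked to rRNA or tRNA fragments (0.88, 5 tested members).

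Identifiers linked to rRNA or tRNA fragments, which are thought to stem from breakdown of other RNAs, had 5 of 5 tested members higher and a median of 0.88. Among them are miR-3473b, whose value is that median, miR-709 and miR-1957a. These were already named above for their own high values, so the count is not separate from those values. With the library constant as the scale, on which 324 of 361 miRNAs were higher, all 5 were higher. The list median lay 0.76 above that of all miRNAs on that scale, and 0.87 above it in the comparison as reported. The summed level of the whole list was 2339, 628 and 899 CPM with mannitol and 894, 423 and 627 CPM in normal glucose, so that mannitol replicate 1 stood out. This sum includes miR-5100 and miR-6538, which were listed but not tested, and miR-6538 was itself highest in mannitol replicate 1. Without that library 4 of the 5 tested members were higher and the median was 0.57, and 4 of 5 were higher without normal glucose replicate 3. Most of the sum was miR-2137, at 1395, 388 and 552 CPM against 607, 237 and 415 CPM. With the GC trend removed, which needs a sequence, only 2 of the 5 tested members could be fitted. Both were higher, with a median of 0.40 in place of 0.88 for the 5.

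Markers of other cells were checked because serum and polymer precipitation can bring their RNA. Blood, immune and liver miRNAs had 2 of 6 higher (median -0.05), but 5 of 6 (median 0.10) without mannitol replicate 2 and 4 of 6 (median 0.33) without normal glucose replicate 2. They summed to 25947, 15507 and 33520 CPM with mannitol and 15523, 30463 and 25034 CPM in normal glucose. The liver miRNA miR-122-5p took most of this, at 16969, 11659 and 22512 CPM against 9508, 21809 and 19975 CPM, while miR-142a-3p, an immune cell marker, was listed at 0 in every library. Muscle miRNAs had 3 of 4 higher (median 0.57), but 1 of 4 (median -0.34) without mannitol replicate 3. Of these miR-1a-3p was at 123, 208 and 3822 CPM with mannitol and 55.9, 121 and 917 CPM in normal glucose, so that replicate 3 was highest in both groups. Its log2 fold change of 1.99 (SE 1.54) was -1.07 without mannitol replicate 3. Neural miRNAs had 2 of 3 higher, endothelial 0 of 2, mesenchymal 3 of 5 and kidney tubule 2 of 3. Without mannitol replicate 2 mesenchymal miRNAs had 2 of 5 higher (median -0.06 in place of 0.14) and kidney tubule miRNAs 0 of 3 (median -0.05 in place of 0.10). The endothelial median of -1.03 was 0.11, with 1 of 2 higher, without normal glucose replicate 3, and -0.20 with the replicate block. The mesenchymal median was -0.35 and -0.37 without normal glucose replicate 2 and mannitol replicate 3. With the library constant as the scale these counts were 3, 0, 4 and 3, and those of the blood and muscle lists 5 of 6 and 4 of 4. On that scale 324 of all 361 miRNAs were higher. The endothelial miR-126a-3p was at 300.1, 337 and 314 CPM against 222, 390 and 790 CPM (-0.58, SE 0.40, and -0.10 without normal glucose replicate 3). The tubule marker miR-192-5p had -0.27 (SE 0.30), -0.46 without mannitol replicate 2 and -0.04 without normal glucose replicate 2, and miR-204-5p was listed nowhere. The part of such RNA in the fold changes was not tested.

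Fold changes followed the base composition of the miRNAs. Across 245 miRNAs listed in all 6 libraries and with a sequence, Spearman's rho between log2 fold change and GC content was 0.368, as a description across miRNAs that share libraries and depth. It was 0.639 without mannitol replicate 2, 0.115 without mannitol replicate 1 and 0.066 without mannitol replicate 3, and 0.205 to 0.543 without 1 of the normal glucose libraries. Of the 37 miRNAs under 40% GC, 11 were higher with mannitol, with a median of -0.14. Of the 43 at 60% GC or more, 29 were higher, with a median of 0.26. The 9 of the 10 higher miRNAs that have a sequence had a median GC content of 59.1%, and 8 of the 10 lower 39.7%, beside 50% for all tested. By library, the count-weighted mean GC content was 47.0% and 46.9% in mannitol replicates 1 and 3 and 45.1% in replicate 2, below the 45.5% to 46.3% of normal glucose, a measure added after the data were seen. The part of this trend in single values was not tested beyond its removal, after which 7 miRNAs had an unadjusted p under 0.05 and 0 passed.

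**Figure D5:**
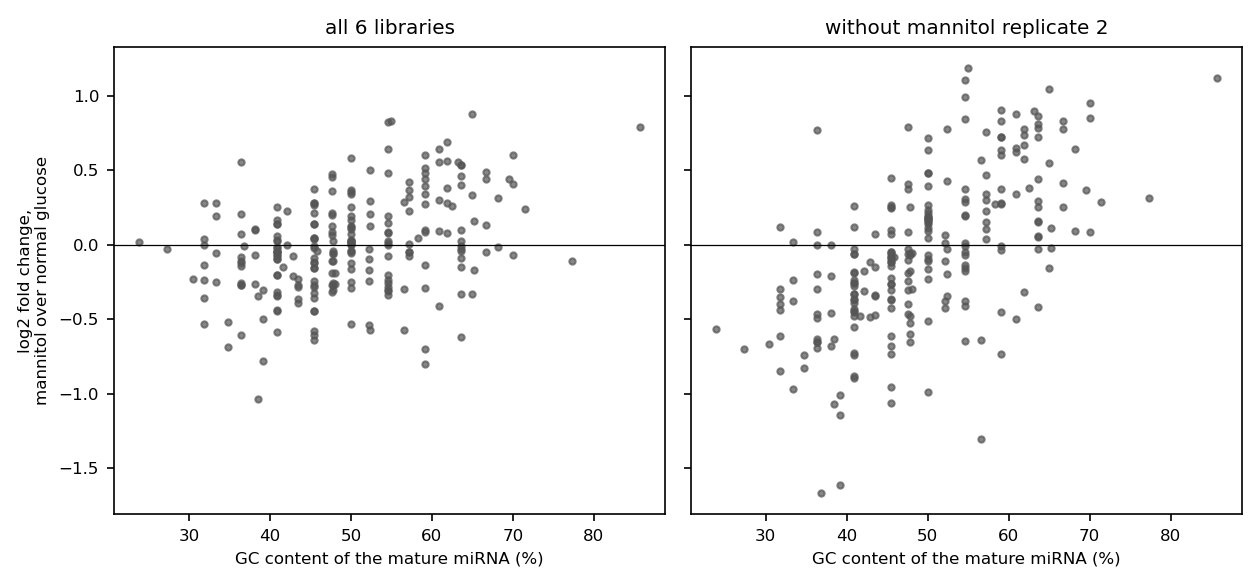
Log2 fold change (y) against GC content of the mature miRNA (x, percent) for 245 miRNAs, with all 6 libraries (left) and without mannitol replicate 2 (right). Each point is 1 miRNA; the upward trend is steeper on the right (Spearman's rho 0.639 against 0.368).

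Without mannitol replicate 2 the comparison still had no miRNA past the threshold (0%, smallest adjusted p = 0.265 in edgeR), but 35 of 361 (9.70%) were at an unadjusted p under 0.05, 20 higher (5.54%) and 15 lower (4.16%). Libraries did not overlap for 94 of 361 (26.0%), with 2 libraries against 3. The following were named after their values were seen. The smallest p was that of miR-3965, listed at 0 in mannitol replicates 1 and 3, at 49.1 CPM in replicate 2 and at 16.9, 29.4 and 81.3 CPM in normal glucose. From the Mir17hg cluster, known to promote cell growth, miR-20a-5p and miR-19b-3p had -1.15 (SE 0.33) and -1.62 (SE 0.47), against -0.50 and -0.78 with all libraries. Mannitol replicates 1 and 3 held 687 and 326 CPM of miR-20a-5p, normal glucose 793 to 1170 CPM, and mannitol replicate 2 held 1222 CPM, above all of them. The same position of replicate 2 was seen for miR-34c-5p, which p53 induces, at 3525 CPM, where the other mannitol libraries held 1114 and 1107 CPM and normal glucose 1575 to 1709 CPM. Among higher values without that library were miR-1198-5p (0.84), miR-574-3p (0.83) and miR-125b-5p (0.64). For all 35, mannitol replicate 2 lay within the normal glucose range or beyond it on the other side. The 35 were picked in the fit without that library, so this position of replicate 2 was largely set by the choice. Of the 5 miRNAs at an unadjusted p under 0.05 with all libraries, 3 were also among the 35.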

How the data were processed

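Vesicle small RNA of 9 libraries was analysed, 3 per treatment label. Per the file headers, each deposited table holds total counts, used as whole-number counts per miRNA identifier, and normalized values, here read as RPM: within a library each is the count over a single constant, whose meaning no source here states. The submitters' processing notes name bcl2fastq, BWA and the mm10 build, without versions. Separate cultures are not stated for the libraries of a group. P-values therefore cover only how these samples vary, possibly through handling alone.

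Levels are CPM of all miRNA counts of a library. Fold changes, SE and 95% intervals came from edgeR 4.0.16 in R 4.3.3 (TMM, expression filter by group, robust quasi-likelihood test, all 9 libraries), with Benjamini-Hochberg adjustment and a threshold of 0.05. DESeq2 1.42.0 and limma 3.58.1 (voom) were alternatives. The code was run on counts simulated with large fold changes and less spread than these libraries have, which checks the code and not its power here. Of 479 miRNAs listed in any library, 403 had a RefSeq sequence (GRCm38.p6), as had 308 of the 361 tested. Host genes are from GENCODE M21. Identical counts in all libraries, as for miR-199a-3p and miR-199b-3p, cannot be assigned to a copy.

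The lists and named miRNAs were chosen with earlier results of these data known. Since no miRNA passed, those named were the 10 of smallest unadjusted p in each direction, those whose libraries did not overlap, their other arms, the 10 most abundant and from each list the 2 most abundant tested members. Unadjusted p-values only describe. Other members of a named list, and neighbours of a named hairpin, are given as context. Alternatives are given in the closing section.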

Additional observations from a re-analysis of the deposited data

How the results depend on the processing

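Without the expression filter edgeR called 1 miRNA, miR-1a-3p (2.08, SE 0.35), and every other alternative called 0. With the filter its SE was much larger at a similar fold change. As given above, its level was far highest in mannitol replicate 3, and without that library its fitted value was negative. The count at an unadjusted p under 0.05, 5 in the comparison as reported, was 15 when scaled to the library constant, 9 without the filter, 14 with listed zeros set to 9 reads and 3 by limma-voom, and 1 to 35 with a library left out. Whether the numbers of the titles pair the libraries could not be decided. Deviations of same-numbered normal glucose and mannitol libraries correlated at 0.23, 0.08 and -0.06, and not every library correlated best with its own number. Normal glucose replicate 1 and high glucose replicate 1 were nearest to each other (0.29), as were mannitol replicate 2 and high glucose replicate 2 (0.18). The other libraries were nearest to a library of their own treatment. With the title numbers as a replicate block 17 miRNAs had an unadjusted p under 0.05, and 0 passed. Intervals within 2-fold numbered 3 when scaled to the library constant, 166 with the replicate block and 83 to 99 with a library left out. Groups were fully apart for 24 miRNAs on levels per library constant, and for 20 to 94 with a library left out, where fewer libraries are compared. The 27 leading miRNAs were picked from these same counts, by small p or by libraries that do not overlap. Kept signs among them are therefore no support for a difference. Of their 401 values under alternatives, 399 kept their sign. The exceptions were miR-10b-5p scaled to the library constant (0.18) and let-7a-5p without normal glucose replicate 2, whose values with a library left out ran from -0.86 to 0.062. The mean number of listed miRNAs was higher by 34.3 with mannitol (12.5 to 47.5 with a library left out), but by -4.67 when counted at a CPM of 10 and -2.67 after thinning. Depth limits rare miRNAs most, since 10 reads are 4.41 to 9.20 CPM in these libraries.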

Other observations

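Of the 468 miRNAs listed in any of the 6 libraries, 70 were listed with mannitol only and 19 in normal glucose only. None was listed in all 3 libraries of one group and in none of the other. Of the 70, 59 were listed in a single mannitol library, and 41 of those in mannitol replicate 3, which has the largest total (2269776 counts) and so the lowest listing limit, 4.41 CPM. The identifier miR-6538, not tested, was at 242 CPM in mannitol replicate 1 and 35.9 CPM in normal glucose replicate 2, and at 0 to 6.61 CPM in the other 4 libraries.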
